A study of Mus musculus with 6 samples.

Results

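Dividing T cells of the mouse lung were picked out from single-cell RNA profiles by what each cell held in counts. A cell was taken when Cd3d, Cd3e and Cd3g, the invariant chains of the T cell receptor complex, summed to at least 2 counts and when Mki67 and Top2a, both made by proliferating cells, had at least 1 count each. Cells with any count of Siglech, Cxcr2 or Csf1r, or with 2 or more counts of Cd79a or C1qa, which mark plasmacytoid dendritic cells, neutrophils, macrophages and B cells, were left out. Each barcode was used once per treatment, in the table where its total was highest, and at least 500 expressed genes were required with no upper limit. The rule gave 214 cells in the PD-1 agonist library and 301 in the isotype library, 515 of the 24474 cells with at least 500 genes. Mki67, Top2a and the Cd3 genes are therefore high by choice, and their levels are no finding.

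A T cell that has met its antigen leaves rest by passing from G1 into S phase, when the E2F transcription factors switch on the enzymes that copy DNA and the histones that package it. In G2 and mitosis a later set of genes builds the spindle, checks the attachment of chromosomes and divides the cell, and many of these genes are held silent in resting cells by a repressor complex that binds their promoters. Naive and central memory cells that circulate through the lung rarely divide, while activated effector cells do. PD-1, the product of Pdcd1, is an inhibitory receptor that T cells put on their surface after activation, and an agonist antibody switches it on in place of its natural ligands.

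The mice were a humanized PD-1 model, 6 to 8 weeks old. They were given a PD-1 agonist or an isotype control antibody, and the study's title places them in work on neutrophilic asthma. Live CD45+ leukocytes were sorted from the lungs and run on a 10x Genomics instrument, with 3 samples per treatment mixed by cell hashing and about 50000 cells per treatment stated. The tables hold 13728 distinct barcodes for the agonist and 12448 for the isotype, of which 12693 and 11781 had at least 500 genes.

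Each treatment comes as 3 tables labelled as mouse 1 to 3, but any pair of tables of a treatment had 2373 to 2736 barcodes in common (35.9% to 42.5% of the smaller table), against 3 to 13 for a pair from different treatments. Of the dividing T cells, 118 agonist barcodes stood in 1 table, 78 in 2 and 18 in all 3, and for the isotype these numbers were 143, 125 and 33. Each treatment therefore counts here as 1 pool of cells, so that there is no test between treatments, and the effects of the agonist and of its library cannot be told apart. The isotype tables carry a column of their own that calls their cells untreated. Intervals in brackets are exact 95% intervals for counting error only. Where values per table are given, the tables share cells, and their spread is not a spread between mice.

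The label of the cells held against genes that the rule did not use. Birc5, the survivin protein of the chromosomal passenger complex, was detected in 77.6% of the agonist and 80.7% of the isotype dividing T cells, against 0.797% and 0.958% of the T cells with neither Mki67 nor Top2a and 0.186% and 0.89% of non-dividing B cells. Pclaf, a clamp-associated factor of DNA replication, was found in 92.1% and 94.4% of dividing T cells, against 1.79% and 1.97% of the other T cells and 0.373% and 1.48% of B cells. At least 3 of 11 T cell genes were present in 214 of 214 agonist and 300 of 301 isotype cells. That list includes Cd3d and Cd3g, so this count is in part set by the rule. Trbc2, a constant chain of the T cell receptor that the rule did not use, was detected in 93.9% and 95.0%. In dividing cells left out with a Cd3 sum of 0 it was still detected in 48.6% and 37.4%, so Trbc2 alone does not mark a T cell. Dividing T cells were much richer in RNA than the other T cells, with a median of 9444.5 counts (3315 genes) in the agonist library and 9935 counts (3418 genes) in the isotype library, which is 3.48 and 3.39 times the median of T cells with neither gene. Thinned to 3000 counts a cell, Birc5 was still detected in 50.7% and 56.7% of dividing T cells, against 0.527% and 0.793% of the others. A limit of 4000 genes per cell, as in the authors' own filter column, would have removed 59 agonist cells (27.6%) and 89 isotype cells (29.6%), while 0.332% and 0.419% of the T cells with neither gene lay outside that filter. A doublet caller marked 10 agonist (4.67%) and 16 isotype dividing T cells (5.32%), against 6.31% and 6.16% of the T cells with neither gene.

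At the edges of the rule the cells shaded into other types. With a Cd3 sum of at least 2 and under 3, just inside, there were 10 agonist and 9 isotype cells, in which Ncr1, the NK cell receptor NKp46, was detected in 30% and 22.2%. Just outside, 22 agonist and 17 isotype cells had a Cd3 sum of at least 1 and under 2, with Ncr1 in 54.5% and 47.1%. Among all members Ncr1 was found in 8.41% and 3.32%. In the 177 agonist and 211 isotype dividing cells left out with a Cd3 sum of 0 it was found in 64.4% and 65.9%. T cells with Mki67 but no Top2a numbered 52 and 69, and those with Top2a but no Mki67 86 and 154, with Birc5 in 26.9% and 20.3% of the first kind and 5.81% and 9.74% of the second. The genes set to exclude other types removed 83 agonist and 119 isotype cells that met every other condition, and those cells had a median of 15065 and 18416 counts and Lyz2, a lysozyme of myeloid cells, in 61.4% and 76.5%.

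Dividing cells made up 11.5% (10.1 to 13.1) of the 1858 T cells of the agonist library and 13.7% (12.3 to 15.2) of the 2195 T cells of the isotype library. The log2 ratio of these shares was -0.25 (-0.51 to 0.01), so the lower share with the agonist lay at the edge of counting error. Thinned to 3000 counts the shares were 15.1% of 878 agonist and 17.6% of 1221 isotype T cells, with a log2 ratio of -0.22 (-0.54 to 0.10). With Mki67 or Top2a in place of both, and no thinning, the shares were 18.9% and 23.9%. Their log2 ratio was -0.33 (-0.53 to -0.14), so whether the interval reached 0 depended on the rule. Of all leukocytes with at least 500 genes, dividing T cells were 1.69% in the agonist library and 2.55% in the isotype library, a log2 ratio of -0.60 (-0.86 to -0.34). That wider gap also holds the smaller share of T cells as a whole, 14.6% against 18.6%. The dividing share was 12.4%, 12.2% and 11.1% in the 3 agonist tables and 14.6%, 14.1% and 14.1% in the 3 isotype tables.

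**Figure D1:**
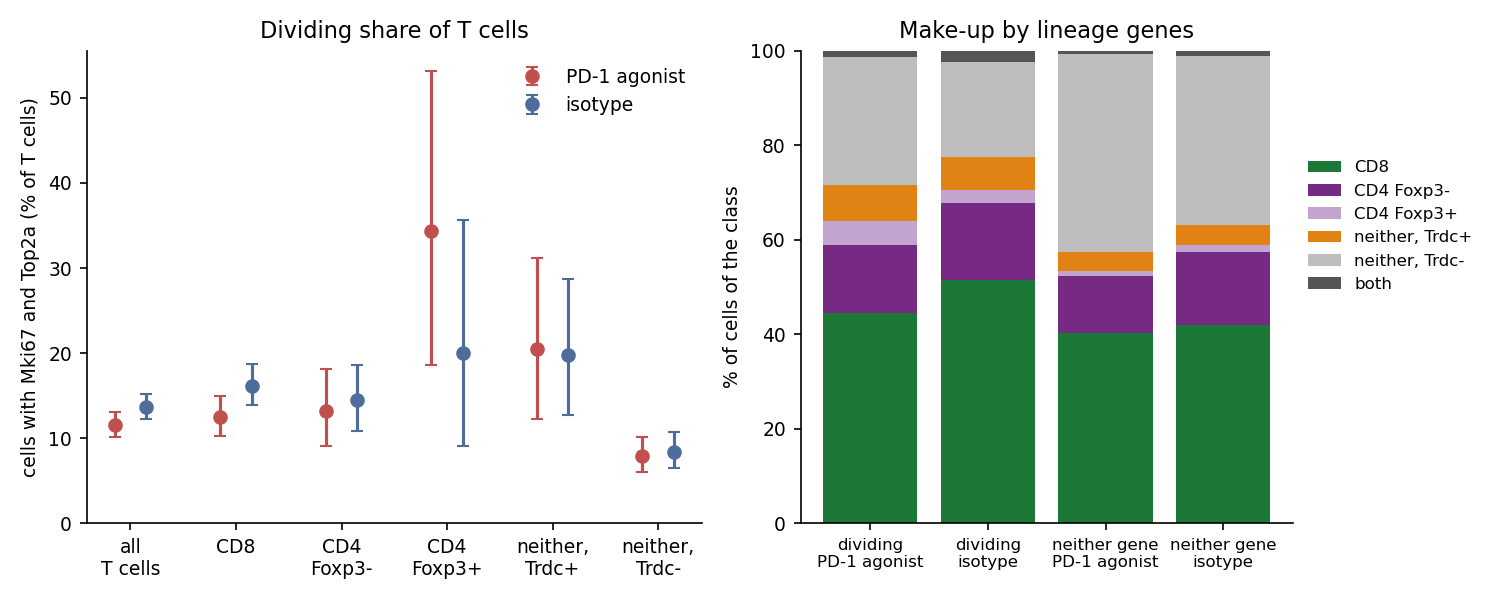
Left, share of T cells with both Mki67 and Top2a (y axis, percent) for all T cells and for 5 lineage classes, PD-1 agonist in red and isotype in blue, with exact 95% binomial intervals for counting error. Right, make-up of dividing T cells and of T cells with neither gene by the same 5 classes and cells with both co-receptors (y axis, percent of cells). CD8 cells are the largest named class of dividing T cells in both libraries, at 44.4% and 51.5%.

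By lineage, CD8 cells (a count of Cd8a or Cd8b1, none of Cd4) were the largest named class, with 95 of 214 dividing T cells in the agonist library (44.4%, 37.6 to 51.3) and 155 of 301 in the isotype library (51.5%, 45.7 to 57.3). CD4 cells were 19.6% and 18.9% of dividing T cells, and cells with Trdc, the constant chain of the gamma-delta receptor, and neither co-receptor were 7.48% and 6.98%. A further 27.1% and 20.3% had no co-receptor and no Trdc count, and 3 agonist cells (1.40%) and 7 isotype cells (2.33%) had counts of both co-receptors. The CD8 share of the agonist library rests on 1 table, since without the one labelled agonist mouse 1 it was 51.8%. Among the other T cells CD8 cells were 40.2% and 42.0%, but with all cells thinned to 3000 counts the order turned round, to 35.7% and 46.8% of dividing T cells against 48.3% and 50.6% of the others, so no order between dividing and other cells can be read.

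Turned the other way, 12.5% (10.2 to 15) of agonist and 16.2% (13.9 to 18.7) of isotype CD8 cells were dividing, and 15.7% (11.5 to 20.6) and 15.04% (11.6 to 19.0) of CD4 cells. CD4 cells without Foxp3 stood at 13.1% of 236 agonist and 14.5% of 339 isotype cells. In each of these classes the intervals of the libraries overlap, and differences between lineages were not tested. Of CD4 cells with Foxp3, the transcription factor of regulatory T cells, 11 of 32 (34.4%, 18.6 to 53.2) were dividing in the agonist library and 8 of 40 (20%, 9.05 to 35.6) in the isotype library. Cells with both co-receptors gave 3 of 16 (18.75%, 4.05 to 45.6) and 7 of 28 (25%, 10.7 to 44.9). These are few cells, and their intervals overlap that of Trdc+ cells, at 20.5% and 19.8%. Cells with neither co-receptor nor Trdc had the lowest shares, 7.91% and 8.43%, but also the lowest median depth, 2533 and 2767.5 counts. Thinned to 3000 counts, this class was 44.9% and 37.5% of dividing T cells, against 36.9% and 32.2% of the others. No order between the lineages can therefore be read from these shares.

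The cycle stage of each dividing T cell was read from the share of its counts in 45 G1/S and DNA replication genes and in 70 G2/M and mitosis genes, with Mki67 and Top2a left out of both. The median cell gave 0.667% (agonist) and 0.665% (isotype) of its counts to the G1/S list, and 1.24% and 1.41% to the G2/M list. In T cells with neither gene the medians were 0.0632% and 0.0723% for G1/S and 0.155% and 0.168% for G2/M. The G2/M sum was the larger in 172 of 214 agonist cells (80.4%, 74.4 to 85.5) and in 248 of 301 isotype cells (82.4%, 77.6 to 86.5). The lists differ in size and in the levels of their genes, so this share compares libraries and does not count cells in a phase. By lineage it was 78.9% and 81.9% in CD8 cells and 88.1% and 89.5% in CD4 cells, all within counting error of each other between libraries.

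**Figure D2:**
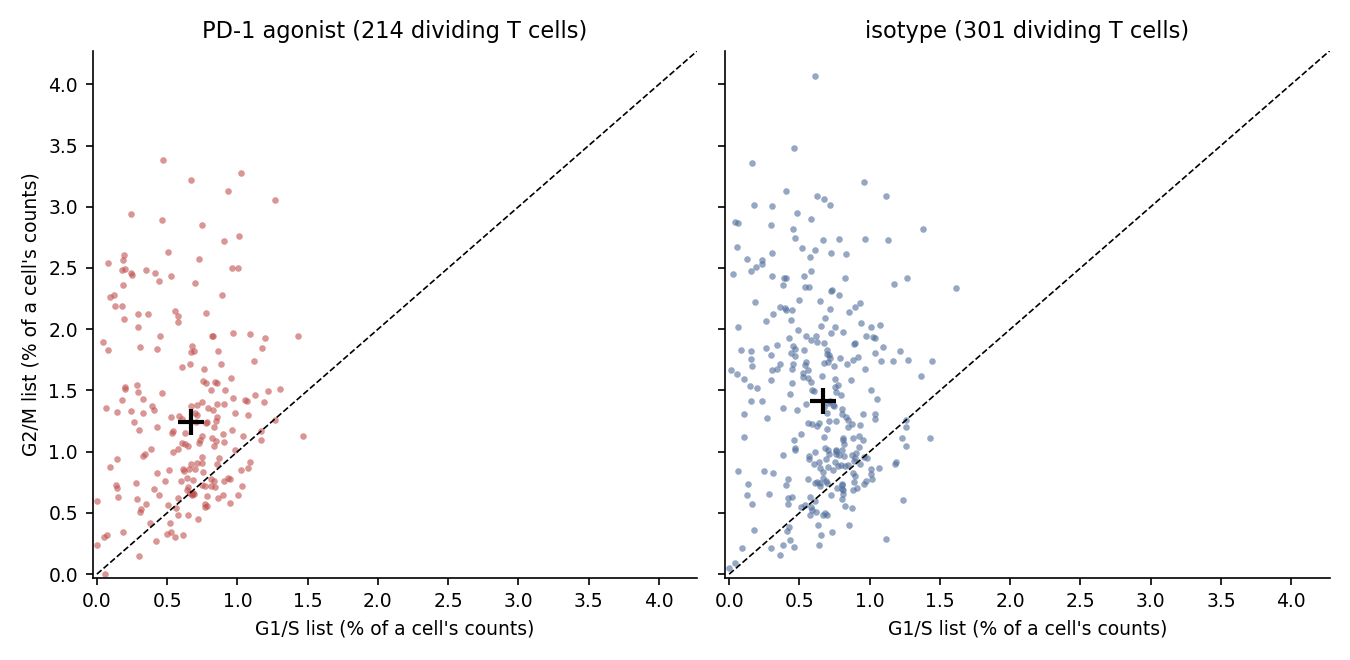
Each point is a dividing T cell, with the share of its counts in the G1/S list (x axis, percent) and in the G2/M list (y axis, percent), PD-1 agonist left and isotype right. The dashed line marks equal shares and the cross the medians. In both libraries most cells lie above the line (80.4% and 82.4%), and the median of the G2/M list is 1.24% in the agonist and 1.41% in the isotype library.

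Summed over cells, the counts of dividing T cells were set against those of T cells with neither gene, in CPM, a gene's counts relative to the summed counts of the cells, scaled with TMM factors. This is a description of cells chosen by 2 cycle genes. Of 11493 genes with at least 50 counts, 8.06% were at least doubled (a log2 ratio of 1 or more) in both libraries and 5.49% were lower by as much. By sign alone 39.2% were higher and 44.3% lower in both. The replication and mitosis genes lay far above that background. In the G1/S list 44 of 45 genes were past the threshold (median log2 ratio 2.95 in the agonist and 2.86 in the isotype library). Mcm5, a subunit of the helicase that opens DNA, had 257 CPM in agonist and 255 CPM in isotype dividing T cells, against 36.5 and 46.2 CPM in the others. Rrm2, the regulated subunit of ribonucleotide reductase, which makes the building blocks of DNA, had 248 and 310 CPM against 4.1 and 4.8 CPM.

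In the G2/M list 67 of 70 genes were past the threshold in both libraries (medians 4.95 and 4.88). Ccna2, the cyclin A of S phase and G2, had 171 and 182 CPM in dividing T cells and only 2 counts in each library's T cells with neither gene. Birc5 had 293 and 344 CPM against 3.89 and 3.55 CPM (log2 ratios 6.24 and 6.60). Cenpf, a kinetochore protein, had 186 and 228 CPM against 2.16 and 2.84 CPM, and Aurkb, the kinase of the passenger complex, 84.6 and 88.5 CPM against 1.08 and 1.07 CPM. The 3 genes short of it were Bub3, a spindle checkpoint protein (0.78 and 0.92), Smc4, a condensin subunit (0.87 and 1.03), and Pttg1, the securin that holds back chromosome separation (0.09 and -0.11). Pttg1 was thus no higher in dividing T cells than in the others, at 46.6 and 40.8 CPM against 43.6 and 43.9 CPM. All 16 measured replication-dependent histone genes passed the threshold (medians 4.46 and 4.69), although most share sequence with other histone genes, so that counts of single members are uncertain. Of the genes for nucleotide synthesis 15 of 20 passed it (medians 1.45 and 1.48).

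The promoters of the genes that define this division program are shown here, because the 2 stages differ in the short motifs they hold. Each sequence is the RefSeq promoter of the GRCm38.p6 build, 250 bases before to 50 bases after the annotated start, 5′ to 3′ on the gene's strand, for Top2a (chr11:99024140-99024439, minus strand), Cdk1, the master kinase of mitosis (chr10:69352863-69353162, minus strand), Birc5 (chr11:117848987-117849286, plus strand), Pclaf (chr9:65890073-65890372, plus strand) and Mcm5 (chr8:75109259-75109558, plus strand). Capitals mark the cell cycle genes homology region (CHR, TTTGAA or TTCGAA), the CCAAT box bound by NF-Y and the E2F site GGCGGGAA, each on either strand.
Top2a: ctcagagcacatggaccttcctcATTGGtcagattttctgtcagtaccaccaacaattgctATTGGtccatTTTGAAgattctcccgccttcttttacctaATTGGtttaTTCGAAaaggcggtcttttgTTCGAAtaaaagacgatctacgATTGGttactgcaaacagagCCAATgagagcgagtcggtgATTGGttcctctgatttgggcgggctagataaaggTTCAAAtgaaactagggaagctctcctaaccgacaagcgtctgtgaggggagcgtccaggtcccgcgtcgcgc
Cdk1: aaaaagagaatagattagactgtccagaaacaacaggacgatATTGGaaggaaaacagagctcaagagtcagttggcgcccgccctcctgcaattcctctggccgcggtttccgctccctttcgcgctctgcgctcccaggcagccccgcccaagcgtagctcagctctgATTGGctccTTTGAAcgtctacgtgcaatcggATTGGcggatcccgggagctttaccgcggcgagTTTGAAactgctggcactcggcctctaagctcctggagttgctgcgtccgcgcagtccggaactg
Birc5: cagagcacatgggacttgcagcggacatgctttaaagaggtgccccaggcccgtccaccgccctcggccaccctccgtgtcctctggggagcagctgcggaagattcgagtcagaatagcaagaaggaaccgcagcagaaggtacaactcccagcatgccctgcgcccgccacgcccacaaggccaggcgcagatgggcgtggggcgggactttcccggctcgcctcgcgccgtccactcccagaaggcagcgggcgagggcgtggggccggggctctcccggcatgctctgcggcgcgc
Pclaf: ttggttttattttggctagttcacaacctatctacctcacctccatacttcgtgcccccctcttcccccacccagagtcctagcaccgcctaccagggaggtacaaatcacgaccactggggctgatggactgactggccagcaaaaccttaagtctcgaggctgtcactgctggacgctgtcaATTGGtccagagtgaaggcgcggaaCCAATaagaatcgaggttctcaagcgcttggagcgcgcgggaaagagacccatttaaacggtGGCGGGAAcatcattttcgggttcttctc
Mcm5: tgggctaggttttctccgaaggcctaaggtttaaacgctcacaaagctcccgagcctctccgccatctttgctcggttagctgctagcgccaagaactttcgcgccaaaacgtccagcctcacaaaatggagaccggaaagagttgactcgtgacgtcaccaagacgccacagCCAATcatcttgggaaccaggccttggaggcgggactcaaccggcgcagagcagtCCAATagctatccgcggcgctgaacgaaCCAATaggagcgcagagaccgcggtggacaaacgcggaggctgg
Top2a held 4 CHR and 6 CCAAT matches and Cdk1 2 and 3, and neither held the E2F site. Pclaf held 2 CCAAT boxes and 1 E2F site with no CHR. Mcm5 held 3 CCAAT boxes, with no CHR and no E2F site. In the window printed for Birc5 none of these letters occurred. Among the 58 G2/M genes with a promoter in the table, 44 (75.9%) held a CHR, against 7 of 35 G1/S genes (20%) and 19.4% of all 27025 promoters. The E2F site went the other way, in 9 of 35 G1/S promoters (25.7%), 0 of 58 G2/M promoters and 2.24% of all. A CCAAT box was present in 72.4% of G2/M and 65.7% of G1/S promoters, against 37.9% of all. A match of letters is a description and not a site shown to be bound.

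Genes of rest and recirculation were lower in dividing T cells. All 12 genes of the naive and memory list had a log2 ratio of -1 or lower in both libraries (medians -1.91 and -1.94), against the background of 5.49%. Il7r, the receptor that keeps resting T cells alive, had 158 and 186 CPM against 823 and 744 CPM, and Ccr7, which leads T cells into lymph nodes, 109 and 140 CPM against 654 and 517 CPM. S1pr1, needed to leave lymphoid tissue, had 102 and 73 CPM against 490 and 382 CPM. Tcf7 and Lef1, transcription factors of naive and memory cells, had log2 ratios of -1.57 and -1.59, and of -2.05 and -2.08. Of 18 genes that restrain the cycle 6 were past the threshold downwards, among them Cdkn1b, the inhibitor p27 (-1.21 and -1.45), Btg1 (-1.85 and -1.73) and Pik3ip1, a brake on PI3 kinase (-2.56 and -2.30). Past it upwards were Cdkn2c, the inhibitor p18, with 36.2 and 44.7 CPM against 4.54 and 5.51 CPM, and Rbl1, the pocket protein p107, with 81 and 92.5 CPM against 34.1 and 33 CPM. Bcl2, the survival factor that IL-7 maintains, had 219 and 214 CPM against 625 and 608 CPM. All 16 genes of the type I interferon response were lower by sign in both libraries (medians -0.59 and -0.77), against the background of 44.3%. Ranked over all genes, the 15 lowest also held Kdm5b, a histone demethylase (-2.66 and -2.79), Trib2, a pseudokinase (-2.28 and -2.92), and Zfp281, a zinc finger factor with 40.7 and 36.8 CPM against 222 and 198 CPM.

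Growth and energy genes were higher by less. The median log2 ratio was 0.79 and 0.81 over 30 oxidative phosphorylation genes, 0.81 and 0.74 over 20 growth genes and 0.72 and 0.49 over 15 glycolysis genes, against all-gene medians of -0.07 and -0.03. By sign 29 of 30, 19 of 20 and 11 of 15 of these genes were higher in both libraries, against the background of 39.2%. Ran, the GTPase of nuclear transport and spindle assembly, had 624 and 897 CPM against 152 and 233 CPM. Among the genes that dividing T cells use to sense and kill, Il2ra, the high-affinity chain of the IL-2 receptor, had 215 and 197 CPM against 105 and 99.1 CPM and Gzmb, granzyme B of killer cells, 791 and 509 CPM against 191 and 205 CPM. None of 19 T cell receptor signalling genes was past the threshold in either direction (medians -0.42 and -0.23).

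**Figure D3:**
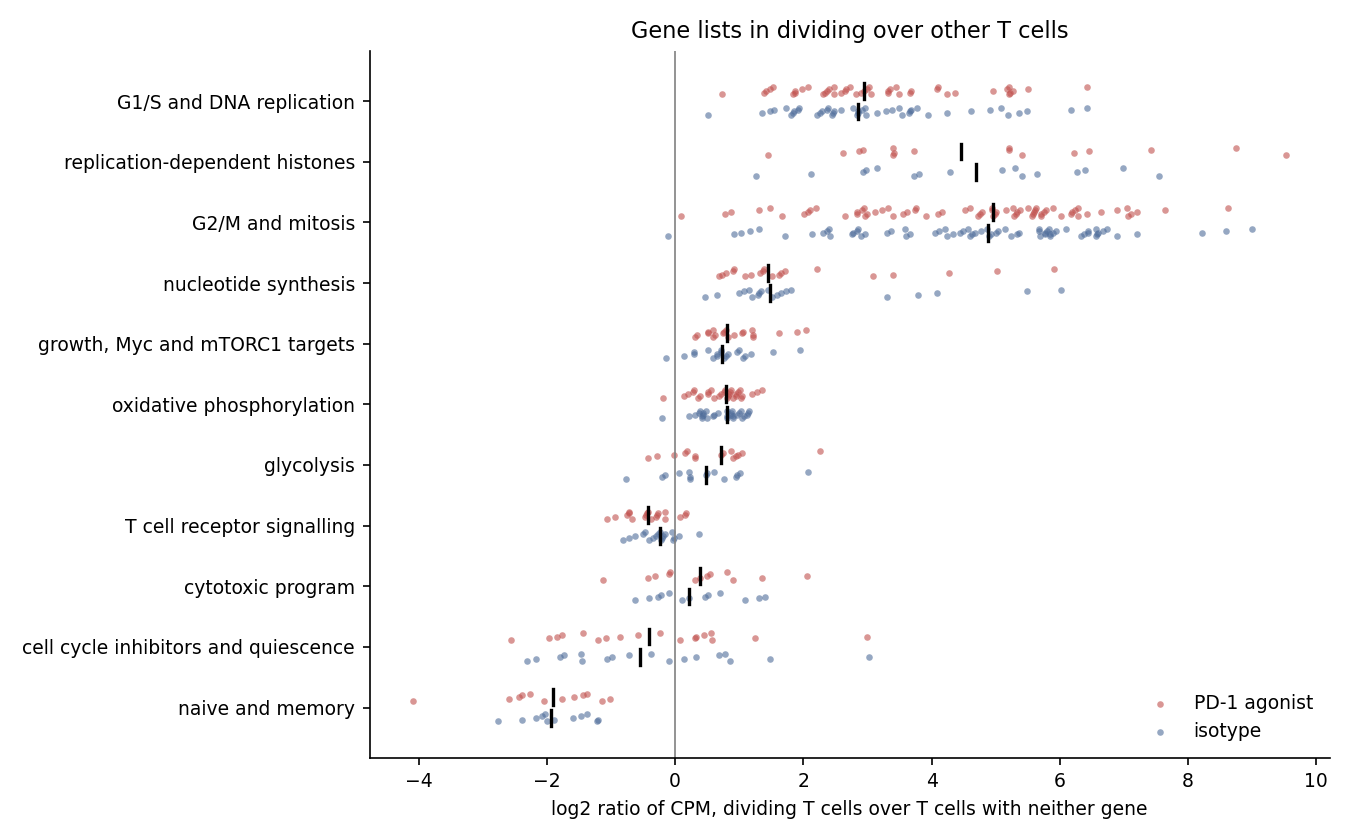
Log2 ratio of CPM in dividing T cells over T cells with neither Mki67 nor Top2a (x axis) for the genes of 11 lists with at least 50 counts, 1 point a gene, PD-1 agonist in red above isotype in blue, black bars at the medians. The G2/M median is 4.95 and 4.88, and all 12 naive and memory genes lie below -1.

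Between the libraries, the dividing T cells were compared over 8910 genes with at least 50 counts. The median log2 ratio of all genes, agonist over isotype, was -0.05. By sign 43% of genes were higher and 57% lower with the agonist, with a counting interval above 0 for 7.87% and below 0 for 10.4%. Ratios of at least 1 were found in 2.41% and of at most -1 in 1.02%.

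Most mitosis genes were lower by sign in agonist dividing T cells, while replication genes were split. Of the G2/M list 61 of 70 genes were lower, 26 with an interval below 0 and 2 with one above, and the median was -0.21, against -0.05 for all genes. Prc1, which bundles the midzone of the spindle, had 116 CPM in the agonist and 163 CPM in the isotype library (-0.49, -0.71 to -0.27), and the 3 agonist tables gave 119, 101 and 136 CPM against 159, 141 and 175 CPM in the isotype tables. Mad2l1, a spindle checkpoint protein, had 79.6 and 108 CPM (-0.44, -0.71 to -0.17), Cenpf 186 and 228 CPM (-0.29, -0.47 to -0.11) and Birc5 293 and 344 CPM (-0.23, -0.37 to -0.09). H2afz, a histone variant, had 318 and 588 CPM (-0.88, -1.01 to -0.76), but 34.5% of its sequence words recur in other genes and it was also lower in the other T cells (-0.65). Cenpw, a centromere protein, was the other way, with 165 and 139 CPM (0.24, 0.04 to 0.45).

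The G2/M difference was small and depended on which cells were kept. With cells of at most 4000 genes 46 of 69 genes were lower (median -0.06), and without cells holding 2 or more NK genes 43 of 70 (median -0.06), against all-gene medians of -0.06 and -0.03. At no more than 4000 genes Cenpf stood at -0.03 and Birc5 at -0.16, both with intervals that reach 0, and without cells with NK genes Prc1 stood at -0.31. In the G1/S list 25 of 45 genes were lower (median -0.03), 5 with an interval below 0, and without TMM factors 21 of 45, but 35 of 44 (median -0.18) with cells of at most 4000 genes. Mcm5 (257 and 255 CPM) and Mcm2 (172 and 170 CPM) were level within counting error. Slbp, which binds the stem loop of histone mRNA, was the single G1/S gene with an interval above 0 (181 and 123 CPM, 0.56, 0.36 to 0.76), and it was higher in the other T cells of the agonist library too (0.64). Of the cyclin and kinase genes that start the cycle, Cdk6 was higher with 160 and 119 CPM (0.42, 0.21 to 0.64) and Ccnd3 lower with 166 and 208 CPM (-0.33, -0.51 to -0.14).

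Some ratios were much the same in T cells that did not divide. Hspa8, a constitutive chaperone, had 700 and 1180 CPM in dividing T cells (-0.75, -0.83 to -0.66) and a log2 ratio of -0.63 in the other T cells. Ran stood at -0.52 (-0.62 to -0.43) and -0.62 there, and Ndufs5, a subunit of respiratory complex I, at 2.24 (1.45 to 3.09) and 2.38. Their counts are uncertain, since 59.6% of the sequence words of Hspa8, 20.6% of those of Ran and 36% of those of Ndufs5 recur in other genes. All 8 measured heat shock genes were lower by sign with the agonist (median -0.17), 6 with an interval below 0. Of all genes 57% were lower by sign and 10.4% had an interval below 0. By sign 24 of 30 oxidative phosphorylation genes were lower, or 18 of 30 without TMM factors. Their median of -0.07 was near the -0.05 of all genes.

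Genes of the T cell receptor pathway were mostly lower and early activation genes mostly higher in agonist dividing T cells. Of 19 receptor signalling genes 17 were lower (median -0.18), 8 with an interval below 0, though without TMM factors 13 of 19 were lower. The shares over all genes were 57% lower by sign and 10.4% with an interval below 0. Themis, an adaptor of T cell receptor signalling, had 82.8 CPM in the agonist and 116 CPM in the isotype library (-0.49, -0.75 to -0.23), Lat, the scaffold of the receptor, 225 and 286 CPM (-0.34, -0.50 to -0.18), and Malt1, of the pathway to NF-kappaB, 227 and 292 CPM (-0.36, -0.52 to -0.20). In T cells that did not divide these 3 stood at -0.07, -0.09 and 0.13. Cd3e, itself part of the rule, had 269 and 333 CPM. Of 9 chemokine receptor genes 8 were lower (median -0.37), among them Ccr7 with 109 and 140 CPM (-0.37, -0.60 to -0.14), which was higher in the other T cells (0.34). Without cells holding other types' genes 4 of 6 chemokine receptor genes were lower and Ccr7 stood at -0.18, with an interval that reaches 0. Malt1 stood at -0.12 at no more than 4000 genes, again with an interval that reaches 0.

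Of 17 activation genes 14 were higher with the agonist (median 0.15), 6 with an interval above 0 and 2 with one below. The shares over all genes were 43% higher by sign, 7.87% with an interval above 0 and 10.4% with one below. Nr4a1, an early target of receptor signals, had 187 and 128 CPM (0.54, 0.35 to 0.74), Icos, a costimulatory receptor, 312 and 247 CPM (0.34, 0.19 to 0.49), and Tnfrsf9, the receptor 4-1BB, 62.4 and 42.6 CPM (0.55, 0.20 to 0.90). In the other T cells these were level (0.05, 0.07 and 0.04). Batf, a transcription factor of effector cells, was lower with 37.1 and 54.5 CPM (-0.55, -0.95 to -0.17). The list rests on 1 table, since without the one labelled agonist mouse 1 only 8 activation genes were higher. The naive and memory list was mixed, with 8 of 12 genes higher by sign (median 0.12), 4 with an interval above 0 and 3 with one below. Lower in it were Ccr7, Il7r with 158 and 186 CPM (-0.23, -0.43 to -0.04) and Igfbp4, a binding protein of insulin-like growth factors, with 10.4 and 21.9 CPM (-1.07, -1.82 to -0.38). In it S1pr1 was higher with 102 and 73 CPM (0.49, 0.22 to 0.75) and Klf2, the factor that maintains it, with 162 and 119 CPM (0.45, 0.24 to 0.66). The other T cells had a list median of 0.18, with S1pr1 higher there as well (0.36, 0.27 to 0.45). Igfbp4 was higher there (0.25). All 11 measured genes of the regulatory T cell program were higher by sign (median 0.16), against 43% of all genes, and with cells of at most 4000 genes 5 were. Only 1 of the 11 had an interval above 0, which is near the 7.87% of all genes.

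Pdcd1 itself had 60.2 CPM in agonist and 47.2 CPM in isotype dividing T cells (0.35, 0.01 to 0.69), and 26.4 and 51 CPM in the other T cells (-0.95). It was detected in 18.2% and 17.9% of dividing T cells, against 4.58% and 6.64% of the others and 0.28% and 0.297% of B cells. The 3 agonist tables spanned 34.5 to 78.5 CPM and the isotype tables spanned 32.2 to 55.1 CPM, so they overlapped. The interval reaches 0 with the top cells left out (0.27) and in CD8 cells alone (0.08), and without cells with NK genes the ratio was 0.75. How much of the humanized allele is read under the name of the mouse gene is not given in the sources used here. Tox, a factor of exhausted T cells, had 38.4 and 27.1 CPM (0.51, 0.06 to 0.95), with a like ratio in the other T cells (0.56).

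Among killer genes, 3 were higher in agonist dividing T cells and near level in the other T cells, although the difference between these ratios was not tested. Gzma, granzyme A, had 1364 CPM in agonist and 869 CPM in isotype dividing T cells (0.65, 0.58 to 0.72), and -0.01 in the other T cells. Gzmb had 791 and 509 CPM (0.64, 0.54 to 0.73) and -0.11 in the others, and Prf1, the pore former perforin, 57.9 and 36.5 CPM (0.67, 0.29 to 1.04) and 0.12. The agonist tables gave 1457, 1630 and 1669 CPM of Gzma against 708, 908 and 980 CPM in the isotype tables. Like shares of cells held these genes in both libraries, with Gzma in 47.2% and 49.2% and Gzmb in 52.8% and 52.5% of dividing T cells, against 6.34% and 5.64%, and 2.8% and 2.97%, of B cells. Other killer genes were lower, as Nkg7, a granule protein, had 639 and 790 CPM (-0.31, -0.40 to -0.21), and the list of 13 held 7 higher and 6 lower genes.

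NK cell markers stood beside this difference. Of the NK list (Ncr1, Klrb1c, Eomes, Klre1 and Tyrobp) 4 of 5 genes were higher with the agonist (median 0.46), against 43% of all genes. Their summed level was 456 CPM in agonist and 364 CPM in isotype dividing T cells, and none was at 0. The other T cells moved the same way, with a median of 0.31 and summed levels of 319 and 261 CPM. At least 2 of the 5 genes were present in 69 agonist cells (32.2%) and 83 isotype cells (27.6%), against 7.64% and 6.40% of the other T cells. Effector CD8 T cells can express Eomes as well. In the cells with 2 or more NK genes Trac, the constant chain of the alpha-beta receptor, was found in 82.6% and 83.1%, and Cd3e stood at 213 and 302 CPM. Dividing T cells with fewer than 2 NK genes had Trac in 81.4% and 89.0% and Cd3e at 309 and 341 CPM. Neither a co-receptor nor Trdc was counted in 33.3% and 19.3% of the cells with NK genes, against 24.1% and 20.6% of those with fewer. CD8 cells were 50.7% and 61.4% of the cells with NK genes, against 41.4% and 47.7% of those with fewer.

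The Gzma difference lay in the cells with NK genes. They had 2585 CPM of Gzma in the agonist and 1368 CPM in the isotype library, while dividing T cells with fewer than 2 NK genes had 605 and 585 CPM. Without the cells with NK genes the log2 ratio of Gzma was 0.02 (-0.11 to 0.15), that of Prf1 -0.20 (-0.95 to 0.52) and that of Gzmb 0.31 (0.16 to 0.45). With cells of at most 4000 genes Gzma stood at 0.38, Gzmb at 0.20 and Prf1 at 0.12, the last with an interval that reaches 0. In CD8 cells alone Gzma stood at 0.63 (0.53 to 0.72) and Gzmb at 0.95 (0.82 to 1.07).

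**Figure D4:**
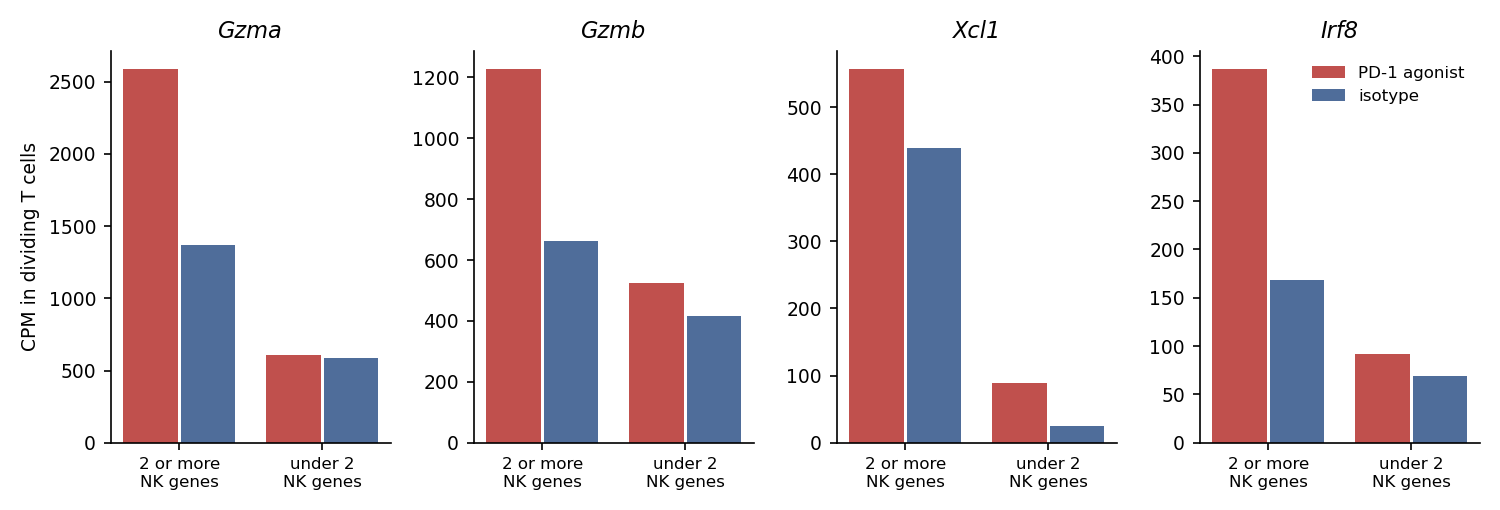
CPM (y axis, of the summed counts of the cells in each bar) of Gzma, Gzmb, Xcl1 and Irf8 in dividing T cells with 2 or more and with under 2 of 5 NK marker genes, PD-1 agonist in red left of isotype in blue, 1 pooled library each and no error bars. For Gzma the bars are 2585 and 1368 CPM in the first class and 605 and 585 CPM in the second.

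Other genes were named by ranking all genes on the interval bound nearest to 0, 12 in each direction. Higher with the agonist were Irf8, a transcription factor of myeloid, B and effector T cells (205 and 105 CPM, 0.97, 0.76 to 1.17), and Cxcl10, a chemokine that attracts T cells (126 and 63.9 CPM, 0.98, 0.72 to 1.25). The other T cells were level for Irf8 (0.07) and lower for Cxcl10 (-0.34). Irf8 gave 231, 243 and 166 CPM in the agonist tables against 126, 105 and 105 CPM in the isotype tables. The Cxcl10 values of the agonist and isotype tables overlapped. Without cells with NK genes Irf8 stood at 0.39 (0.03 to 0.74). Xcl1, a chemokine of killer cells that draws dendritic cells, had 269 and 170 CPM (0.66, 0.49 to 0.83) and 0.37 in the other T cells. The ratio of Xcl1 moved either way with the cells kept, to 1.83 (1.35 to 2.32; 87.7 and 24.7 CPM) without cells with NK genes and to 0.17 (-0.12 to 0.45) without any cell holding genes of other types, where Irf8 stood at 0.93 (0.58 to 1.29). Without the table labelled agonist mouse 1 Cxcl10 stood at 0.46.

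Some high ratios belonged to genes at low levels. Slc15a2, a peptide transporter, had 19.5 and 3.95 CPM (2.30, 1.38 to 3.32), Higd1a, a mitochondrial protein of the hypoxia response, 47.9 and 17 CPM (1.49, 1.01 to 1.99) and Smox, spermine oxidase, 26.7 and 10 CPM (1.41, 0.77 to 2.07). Slc15a2 and Higd1a were higher in the other agonist T cells as well (1.13 and 0.82), and Smox was not (-0.03). Without the table labelled agonist mouse 1 Smox stood at 0.60 and Tnfsf11 at 0.36, both with intervals that reach 0. Dstn, an actin-severing protein (1.05), Ern1, the stress sensor of the endoplasmic reticulum (1.31, 0.49 to 2.16), Tnfsf11, the cytokine RANKL (0.87), and Hlcs, a biotin ligase (1.22), completed the 12, and in the other T cells these stood between -0.14 and 0.17. Ern1 rested on 35 agonist and 21 isotype counts and stood at 0.77 (-0.30 to 1.85) without cells with NK genes. Dstn stood at 0.62 (-0.21 to 1.44) in CD8 cells alone. Over all alternatives Ern1 spanned 0.54 to 2.14 and Dstn 0.62 to 1.58.

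Of the 12 genes lower with the agonist, several belong to myeloid and B cells. Cfp, properdin, had 2.26 and 24.3 CPM (-3.43, -5.09 to -2.15), Ctsh, a lysosomal protease, 5.88 and 35.9 CPM (-2.61, -3.56 to -1.78) and Cybb, the oxidase subunit of phagocytes, 14.9 and 40.5 CPM (-1.44, -2.04 to -0.88). These 3 were found in 2.34% to 9.35% of agonist and 5.32% to 9.97% of isotype dividing T cells, and in 9.79% to 50.1% of B cells. With cells of at most 4000 genes no difference was detectable, as Cfp stood at -0.77 (-3.35 to 1.36), Ctsh at -0.87 (-2.52 to 0.58), Cybb at -0.15 (-0.94 to 0.62), Ly86 at -0.01 (-1.52 to 1.44) and Spi1 at -0.39 (-2.32 to 1.34). The agonist tables gave 3.24, 6.76 and 3.84 CPM of Cfp, against 20.7, 23.6 and 6.84 CPM in the isotype tables. Beside them, at least 2 of 9 macrophage and monocyte markers were present in 7.48% of agonist and 8.64% of isotype dividing T cells, with summed levels of 71.5 and 116 CPM and Csf1r at 0 by the rule. At least 2 of 6 neutrophil markers were present in 18.7% and 8.31%, with summed levels of 190 and 91.6 CPM and Cxcr2 at 0 by the rule, and the other T cells moved the same way (5.91% and 3.29%). At least 2 of 8 B cell markers were present in 9.35% and 6.31% (193 and 180 CPM), none of them at 0. The part of these markers in the ratios of Ly86 (-1.99), App (-2.29), Spi1 (-1.55), Ctss (-0.82) and Ctsz (-0.89) was not tested. Without cells holding other types' genes Ctss stood at -0.14 (-0.60 to 0.30), Ctsz at -0.42 (-0.90 to 0.04), Cfp at -3.37 (-6.47 to -1.42) and Ctsh at -3.31 (-5.63 to -1.68). AA467197 (-0.85), Fmnl3 (-1.23), Myo18a (-1.16) and Plaur (-1.25) were the others, and Plaur stood at 0.14 without those cells.

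**Figure D5:**
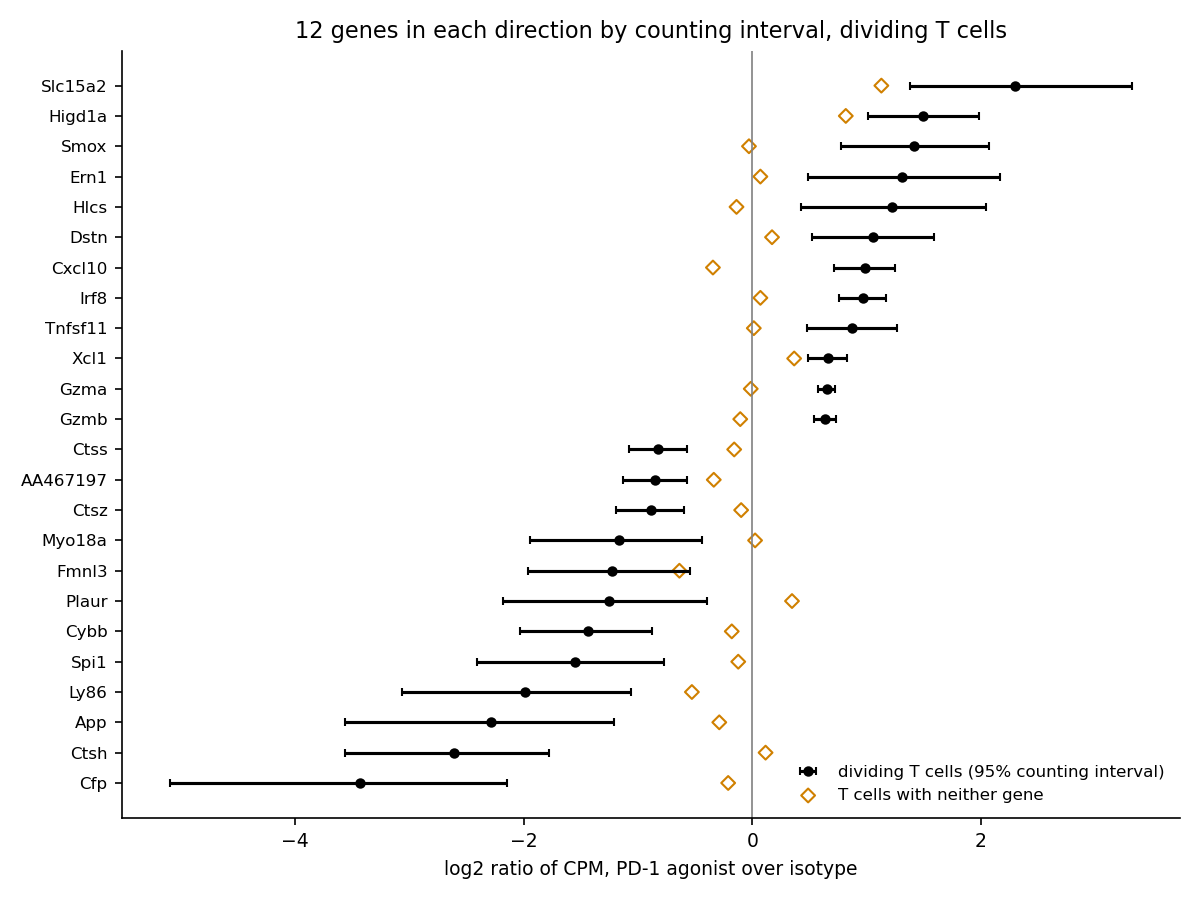
Log2 ratio of CPM, PD-1 agonist over isotype (x axis), for the 12 genes in each direction with the interval bound farthest from 0 (y axis), black points for dividing T cells with exact 95% counting intervals and open diamonds for T cells with neither Mki67 nor Top2a. Gzma and Gzmb lie at 0.65 and 0.64 in dividing T cells and near 0 in the others.

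Cytokine genes in dividing T cells rested on few cells. Il17a had 93.2 CPM in the agonist and 8.21 CPM in the isotype library, but 1 cell held 51.5% of the agonist counts, and the 3 agonist tables gave 162, 101 and 15.3 CPM. Ifng, the cytokine of type 1 cells, had 126 and 122 CPM (0.05, -0.18 to 0.27) and 34.6 and 115 CPM in the other T cells, with 32.2% of the counts of isotype dividing T cells in 1 cell. The ratio of Ifng changed with the cells kept, to 0.46 (0.21 to 0.71) without the top cells, 1.47 (1.11 to 1.85; 161 and 58.1 CPM) in CD8 cells alone and -0.30 (-0.59 to -0.01) without cells with NK genes. No direction can be read for it, and in the other T cells it stood at -1.74.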

How the data were processed

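The files are per-cell tables of Mus musculus lung leukocytes, 3 for each treatment. They hold estimated counts per gene, as deposited by the authors, of which 1.06% of the stored values were not whole. They also hold the authors' deposited counts of expressed genes and total counts per cell, and deposited percentages of mitochondrial and ribosomal counts. Partek and mm10 are named per the submitters' processing notes. Which aligner and which counter made the values is not given in the sources used here. Genes of the tables summed to a median of 97.1% of a cell's deposited total. Of 20882 gene columns 20460 matched 1 annotated gene.

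Counts were summed over cells (Python 3.11.15). R 4.3.3 with edgeR 4.0.16 supplied TMM factors only, with no model fitted and no test. Genes needed 50 counts over the sums compared. Ratios carry exact 95% conditional binomial intervals and shares Clopper-Pearson intervals, and both cover counting error only. Depth was 2189191 summed counts for agonist and 3343807 for isotype dividing T cells, and 4632064 and 5586027 for T cells with neither gene. Thinning drew 3000 counts per cell and left out shallower cells. Doublets were called with Scrublet in scanpy 1.11.5 and kept. Sequence words are 31-mers of the longest transcript. Beside list members, genes were named if protein-coding, under 10% shared and with no cell holding 25% of a library's counts, 12 per direction between treatments and 15 between dividing and other cells. Only the step that gives ratios and intervals was tested on simulated sums, which held counting error and no variation between cells. The cells, the 38 gene lists and the rules were chosen with earlier results of these data known. A few single genes of the lists are not reported here by name.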

Additional observations from a re-analysis of the deposited data

Results flagged for a closer look

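Of 380 list genes with at least 20 counts in both CD8 and CD4 dividing T cells, Gzmb and Pcna had intervals on opposite sides of 0 in the 2 lineages. CPM and ratios here are without TMM factors, so the Gzmb ratio in CD8 cells differs slightly from the one given above. Gzmb was higher with the agonist in CD8 cells, with 1145 CPM in the agonist and 584 CPM in the isotype library (log2 ratio 0.97, 0.85 to 1.10), and lower in CD4 cells, with 147 and 208 CPM (-0.50, -0.91 to -0.10). In CD4 cells 1 cell held 23.4% of the agonist and 18.3% of the isotype counts. Pcna, the sliding clamp of DNA replication, was lower in CD8 cells, with 719 and 821 CPM (-0.19, -0.32 to -0.06), and higher in CD4 cells, with 682 and 513 CPM (0.41, 0.20 to 0.62). The difference between the lineages was not tested, since each treatment is 1 pool, and 2 such genes among 380 were picked for their opposite signs.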

How the results depend on the processing

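No paired analysis was possible because each treatment is 1 pool of cells with no test. Of 487 alternative values for 29 shares and counts, 448 stayed within the error or 1.5 times of the value reported. The dividing share of T cells (agonist, then isotype) was 8.65% and 10.1% at no more than 4000 genes, 18.3% and 19.3% at a Cd3 sum of 4, 8.99% and 11.0% with Mki67 and Top2a at 2 each, 7.91% and 10.95% without cells holding other types' genes, 8.79% and 11.1% without cells with NK genes, 15.1% and 17.6% thinned, and 16.2% in isotype CD8 cells. Thinning gave CD8 shares of 35.7% in agonist dividing T cells and 48.3% and 50.6% in the others, which a Cd3 sum of 4 put at 45.5% and 46.9%. CD4 shares of dividing T cells were 27.6% and 24.3% without NK genes and 10.1% and 9.56% thinned. The G2/M sum was larger in 88.0% of isotype cells with both genes at 2. With minimums of 20 and 1 counts, the number of genes with a log2 ratio of at least 1, PD-1 agonist over isotype, was 350 and 2662, and of genes with a log2 ratio of at most -1, PD-1 agonist over isotype, 282 and 1748. There were 1988 genes with a log2 ratio of at least 1 in both libraries, dividing over other, at a minimum of 1 count, and 408 of at most -1 at a Cd3 sum of 4. In CD8 cells alone 9 activation and 3 regulatory genes were higher. Of regulatory genes 5 were higher at no more than 4000 genes and 7 as a mean over cells. Without other types' genes 4 chemokine receptors were lower and 1 NK marker higher, and without NK genes 0. Of genes past a log2 ratio of 1 between treatments, Plaur reversed its sign (0.14 without other types' genes). Smaller ratios turned too, among them without NK genes Prf1 (-0.20), Klre1 (-0.31), Klrb1c (-0.64), Tyrobp (-0.49) and Lyz2 (0.61). Between dividing and other cells they reversed for Xcl1 (-0.84, isotype) and Klre1 (-0.68 and -0.40) without NK genes, Il17a in the agonist library (-0.90 at no more than 4000 genes, -0.26 without other types' genes) and Foxp3 in isotype CD8 cells (0.61). The cause was not tested. Leaving out 1 table at a time gave agonist CD8 shares of 40.7% to 51.8%, 8 to 15 activation genes and 6 to 11 regulatory genes higher. The alternatives without NK genes and in CD8 cells alone were chosen after seeing the data. Genes under about 50 counts cannot be read at this depth.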

Other observations

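Dividing leukocytes with no Cd3 count were as many as the dividing T cells. They numbered 245 in the agonist and 275 in the isotype library, 42.8% and 38.4% of the cells with both Mki67 and Top2a, against 37.4% and 42.0% for dividing T cells. Their median total was 8321 and 9010 counts. Per summed counts without TMM factors they held 12209 and 13274 CPM of the G2/M list, against 12519 and 14067 CPM in dividing T cells, and 5085 and 5191 CPM of the G1/S list, against 6065 and 6076 CPM.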
